A study of Mus musculus with 12 samples.

Results

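The mitochondrial ribosomal protein genes were taken as all genes of the deposited tables whose mouse symbol starts with Mrpl or Mrps followed by a digit. This gave 78 genes of 9621 listed, 48 named for the large subunit (Mrpl) and 30 for the small subunit (Mrps). 1 of them, Mrps36-ps1, is annotated as a pseudogene of Mrps36, and reads of a gene and its near-identical copy cannot be told apart with certainty. The name table used here holds 83 symbols of this form; Mrpl33 and 4 pseudogenes were not analysed here. Mitochondrial ribosomal proteins are encoded in the nucleus, translated on cytosolic ribosomes and imported into mitochondria, where they assemble with the mitochondrial rRNAs into the mitoribosome. That ribosome makes only the few membrane-embedded subunits of oxidative phosphorylation that mitochondrial DNA encodes. The genes here were taken by symbol, and whether the product of each is part of the mitoribosome was not checked. Of the 78, 47 carry the number of a bacterial ribosomal protein or are known homologs of one. The 30 others that are not pseudogenes were classed as mitochondrion-specific.

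The measurements came from RAW264 cells, a mouse macrophage line. Cells were left untreated (basal), given 100 ng/ml lipopolysaccharide (LPS, a bacterial outer-membrane component that activates macrophages through Toll-like receptor signalling) for 30 min, or given LPS together with 10 µM dexamethasone (DEX, a synthetic glucocorticoid) for 30 min. All cultures received 100 µg/ml cycloheximide, which stops cytosolic but not mitochondrial ribosomes, and there was no group with dexamethasone alone. Each treatment had mRNA-seq and ribosome footprint (RPF) libraries from 2 independent biological replicates, 12 libraries in 6 groups. Abundance is given as CPM, counts per 1000000 reads of the library, which is not divided by transcript length, so that CPM is compared between libraries and not between genes. Translational efficiency (TE) is footprint CPM over mRNA CPM of the same gene. A change was called at an adjusted p (limma-trend, Benjamini-Hochberg over all genes of the fit) under 0.05, and log2 values are differences of log2(CPM + 1) with the standard error of the fit. In such bulk samples fewer cells and less RNA per cell cannot be told apart.

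Depth was 1475120 to 2529666 reads in mRNA libraries and 821946 to 1833560 in footprint libraries, with the 2 LPS footprint libraries the shallowest. A member had 12 to 862 mRNA reads in a library (median 143.5) and 7 to 306 footprint reads (median 79), and all 78 passed the filter on low values in every fit. The macrophage label was checked on 12 markers, all of which were listed, with summed levels of 6139 to 6739 CPM in mRNA and 7600 to 8785 CPM in footprints. 1 mRNA library, that of basal replicate 1, differed from the rest. Its Spearman correlation with the other mRNA libraries was 0.781 to 0.831 over all genes, against 0.894 to 0.98 among the others. Over the 78 members it was 0.888 to 0.957, against 0.876 to 0.979. The epithelial keratin Krt7 was at 1108 CPM and the renin gene Ren1 at 402 CPM in that library, and both were at most 2.43 CPM in each of the other libraries. Of the other lists fixed for cells the cultures could hold, the epithelial list had 1 of 7 markers listed (Krt7) and the fibroblast list 1 of 5 (the collagen gene Col3a1), and none of the markers of T cells, B cells, endothelial cells and erythroid cells was listed. Col3a1 mRNA was at 3.39 and 16.2 CPM in basal cells, 46.7 and 51.4 after LPS, and 75.1 and 61.6 after LPS with DEX, with every treated library above both basal ones. Its footprints were at 142 and 115 CPM, then 65.1 and 60.8, then 134 and 128, lowest in the LPS libraries. The part of these genes in the results was not tested.

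In LPS-treated cells the mRNAs of most mitoribosomal proteins made up a slightly smaller share of the library than in basal cells, and those of Mrps18c, Mrps33, Mrpl52, Mrps21 and Mrpl30 fell by more than the replicate spread. Mrps18c is a homolog of bacterial S18, Mrps21 of bacterial S21 and Mrpl30 of bacterial L30, and Mrps33 and Mrpl52 are mitochondrion-specific. The 300-base RefSeq windows at the gene starts were read for these 5, the members whose mRNA was called lower after LPS. The stretches below are the 140 bases upstream of the start on the gene's strand, from GRCm38.p6. Capitals mark a match on either strand to CCGGAAG, the core bound by ETS-family factors such as GABP (NRF-2), or to GCGCA and GCGC with any 1 base between them, the site of NRF-1, both known regulators of nuclear genes for mitochondria.
Mrps18c, chr5:100798619-100798758, plus strand, no match in this stretch: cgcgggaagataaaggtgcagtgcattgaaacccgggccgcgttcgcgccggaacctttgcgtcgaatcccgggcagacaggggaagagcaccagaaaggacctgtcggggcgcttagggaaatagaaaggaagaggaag
Mrps33, chr6:39810937-39811076, minus strand, no match in this stretch: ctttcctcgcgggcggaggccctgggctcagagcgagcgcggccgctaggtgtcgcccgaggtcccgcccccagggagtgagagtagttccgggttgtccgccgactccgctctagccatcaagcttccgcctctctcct
Mrpl52, chr14:54426769-54426908, plus strand, ETS core: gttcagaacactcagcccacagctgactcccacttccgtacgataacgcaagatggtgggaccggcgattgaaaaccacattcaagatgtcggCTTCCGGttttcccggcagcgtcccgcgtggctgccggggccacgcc
Mrps21, chr3:95871515-95871654, minus strand, NRF-1 site: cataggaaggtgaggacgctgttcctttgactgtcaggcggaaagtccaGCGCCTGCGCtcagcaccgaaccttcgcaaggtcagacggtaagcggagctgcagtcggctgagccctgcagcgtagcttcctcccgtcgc
Mrpl30, chr1:37890337-37890476, plus strand, NRF-1 site: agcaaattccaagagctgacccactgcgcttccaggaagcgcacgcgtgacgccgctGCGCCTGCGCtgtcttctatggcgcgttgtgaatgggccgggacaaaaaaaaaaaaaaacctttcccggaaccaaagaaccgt

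Windows were found for 68 of the 78 members. The NRF-1 site, searched on both strands like the others, was in the windows of 13 members (19.1%), against 13.2% of all listed genes with a window and 5.19% of all genes of the promoter table. The ETS core CCGGAAG was in 25 (36.8%, against 22.9% and 9.93%), and AAGATGGC, the site of YY1, in 12 (17.6%, against 6.09% and 3.19%). Among cytosolic ribosomal protein genes with a window the shares were 9.84% (NRF-1), 41% (ETS) and 9.84% (YY1). Among nuclear oxidative phosphorylation genes with a window they were 27.4%, 25.8% and 14.5% in the same order. Mrps18c, Mrps33 and Mrps21 have the ETS core elsewhere in the 300-base window. The 13 members with the NRF-1 site had a median mRNA change after LPS of -0.20 (log2) and the 55 without it -0.19, and the 25 with the ETS core had -0.23 against -0.18 for the 43 without it. The 12 with the YY1 site had -0.108 and the 56 without it -0.215. These are counts of letters in a window and were given no test.

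mRNA of Mrps18c (ENSMUSG00000016833) was at 71.2 and 75.2 CPM in the basal libraries, 40.8 and 38.7 CPM after LPS, and 32.4 and 38.6 CPM after LPS with DEX. The basal libraries were both above all 4 treated ones. The LPS change was -0.87 ± 0.18 (log2, SE; limma-trend adjusted p = 0.0317). Mrps33 (ENSMUSG00000029918) mRNA was at 84.1 and 86.6 CPM in basal cells, 52.6 and 44.8 after LPS, and 43.5 and 50.1 after LPS with DEX, a change with LPS of -0.80 ± 0.18 (limma-trend adjusted p = 0.0344). Mrpl52 (ENSMUSG00000010406) mRNA was at 297.6 and 278.8 CPM in basal cells, 184.4 and 183.2 after LPS, and 177.9 and 153.3 after LPS with DEX, a change of -0.65 ± 0.13 (limma-trend adjusted p = 0.0294). For these genes too, no treated library reached the lower basal one.

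The other pair showed the same separation. Mrps21 (ENSMUSG00000054312) mRNA was at 184.4 and 212.2 CPM in basal cells, 125.3 and 140.1 after LPS, and 119.4 and 114.8 after LPS with DEX (LPS change -0.57 ± 0.14, limma-trend adjusted p = 0.0448). Mrpl30 (ENSMUSG00000026087) mRNA was at 223.0 and 236.0 CPM, then 160.8 and 148.0, then 148.2 and 139.6 (LPS change -0.57 ± 0.13, limma-trend adjusted p = 0.0359). Of the 78 members, 5 were called lower and 0 higher after LPS, where 1.68% of all genes tested were called lower and 9.03% higher. The members' median change was -0.19 and that of all 9277 genes 0.26, with 59 members below 0. With median-of-ratios scaling, which shifted the all-gene median by -0.26, 7 members were lower and 0 higher (3.42% and 1.98% of all genes), and the members' median minus that of all genes was -0.46, against -0.45 with library totals.
The calls were close to the threshold: 0 members passed without either LPS mRNA library, 1 without basal replicate 1 or without either LPS + DEX library, and 4 without basal replicate 2. A fit of limma-voom to the reads recovered from the CPM called 3.

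**Figure D1:**
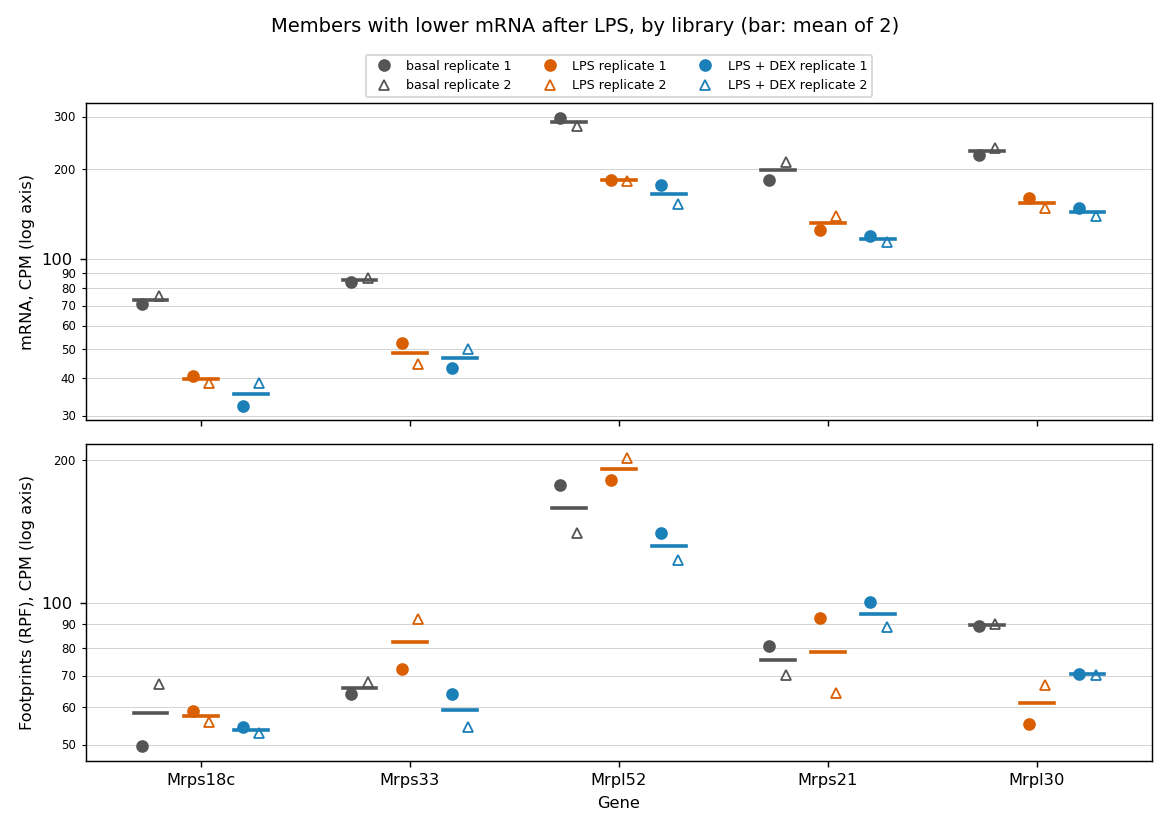
CPM (log axis) in each library for the 5 members whose mRNA fell after LPS, mRNA above and footprints below; circles are replicate 1, triangles replicate 2 and bars the mean of 2. In mRNA both basal points lie above all treated points for each gene, while in footprints the groups overlap for Mrps18c and Mrps21, and both basal points lie above the treated points for Mrpl30.

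Footprints of the same 5 genes were mostly near their basal level. Mrps18c had 49.6 and 67.1 footprint CPM in basal cells and 59.1 and 56.0 after LPS, so that the LPS libraries lay between the basal ones. Mrps33 had 64.1 and 67.7 footprint CPM in basal cells, 72.3 and 92.5 after LPS, and 64.1 and 54.5 after LPS with DEX. Its LPS libraries were above both basal ones, but the difference did not pass (0.31 ± 0.17, limma-trend adjusted p = 0.313). Mrpl52 had 177.1 and 140.7 footprint CPM in basal cells, 182.1 and 202.0 after LPS, and 140.3 and 123.3 after LPS with DEX. Mrps21 had 80.9 and 70.4 footprint CPM in basal cells and 92.8 and 64.5 after LPS, with overlapping groups. Mrpl30 was the 1 member lower in both assays, with 89.3 and 90.1 footprint CPM in basal cells and 55.5 and 66.9 after LPS (-0.55 ± 0.16, limma-trend adjusted p = 0.0458).

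Footprints of 6 members fell after LPS and those of 0 rose, where 4.32% of all 8847 genes tested were called lower and 3.3% higher. The 6 were Mrpl43, Mrpl10, Mrps17, Mrps24, Mrpl30 and Mrps18b. Mrpl10, which in bacteria as in mitochondria anchors the stalk that recruits translation factors, had 73.3 and 68.4 footprint CPM in basal cells, 36.2 and 41.4 after LPS, and 46.6 and 44.7 after LPS with DEX. Both basal libraries lay above all treated ones, and the LPS change was -0.86 ± 0.18 (limma-trend adjusted p = 0.00927). Mrpl43, a mitochondrion-specific protein of the large subunit, had 72.5 and 88.1 footprint CPM in basal cells and 35.0 and 51.1 after LPS (-0.90 ± 0.20, limma-trend adjusted p = 0.0157).
Mrps17, the homolog of bacterial S17, had 39.7 and 39.5 footprint CPM in basal cells and 20.5 and 24.3 after LPS, and Mrps24, the homolog of S3, had 39.7 and 49.98 and then 25.3 and 25.5. In both genes the LPS + DEX libraries were above the LPS ones, at 37.5 and 30.5 for Mrps17 and at 38.1 and 39.3 for Mrps24, differences of 0.58 ± 0.22 and 0.59 ± 0.21 that did not pass (limma-trend adjusted p = 0.151 and 0.119). The median footprint change of the members was -0.06, against -0.07 for all genes.
Of the 6 calls, 0 held without LPS footprint replicate 1, 3 without LPS replicate 2, 1 without basal replicate 2 or either LPS + DEX library, and 4 without basal replicate 1. With the other scaling, 1 was higher and 3 were lower (4.27% and 3.15% of all genes), and limma-voom and array quality weights gave 2 calls each.

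**Figure D2:**
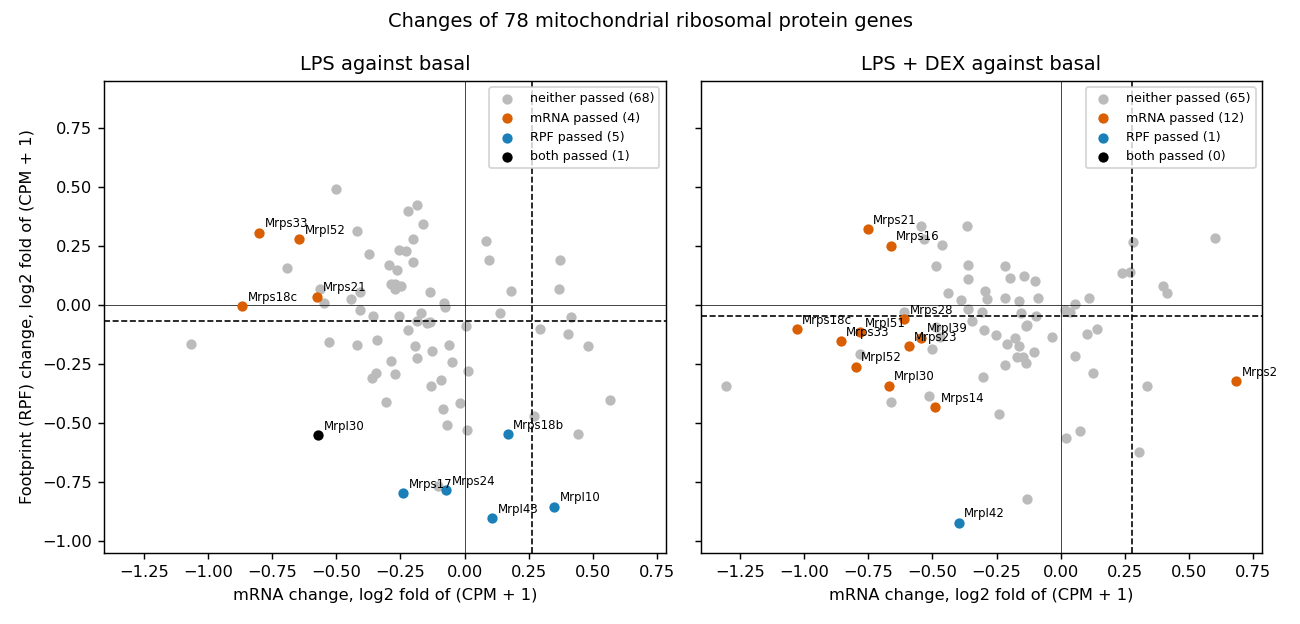
Each point is 1 of the 78 genes, with its mRNA change on the x axis and its footprint change on the y axis (log2 fold of CPM + 1), for LPS against basal on the left and LPS + DEX against basal on the right; both panels share the basal libraries, and the dashed lines are the medians of all genes tested. Most points lie left of the all-gene mRNA median (0.26 and 0.28), and the genes called in mRNA are other than those called in footprints, apart from Mrpl30 with LPS.

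TE of 4 members rose after LPS and that of 6 fell, where 3.08% of all 9412 genes tested were called higher and 13.6% lower. The members that rose were Mrps33 (1.11 ± 0.25), Mrps25 (0.995 ± 0.23), Mrpl52 (0.92 ± 0.20) and Mrps18c (0.86 ± 0.26). Those that fell were Mrpl10 (-1.21 ± 0.28), Mrpl43 (-1.01 ± 0.30), Mrpl37 (-0.99 ± 0.24), Mrps2 (-0.97 ± 0.31), Mrps18b (-0.71 ± 0.23) and Mrpl4 (-0.65 ± 0.20), all in log2 with SE. In Mrps25, a mitochondrion-specific small-subunit protein, footprints over mRNA stood at 0.702 and 0.697 in the basal replicates, 1.36 and 1.46 after LPS, and 1.27 and 1.33 after LPS with DEX. Its mRNA was at 93.6 and 77.4 CPM in basal cells and 60.3 and 59.3 after LPS, and its footprints at 65.6 and 53.9 and then 82.0 and 86.4. Neither of these changes passed alone, and together they gave a TE change with a limma-trend adjusted p of 0.0119.
In Mrpl10 the ratio stood at 1.66 and 1.04 in basal cells, 0.49 and 0.641 after LPS, and 0.685 and 0.677 after LPS with DEX, with a limma-trend adjusted p of 0.012 for the LPS change. Both basal ratios were above all treated ones. Mrpl37, a mitochondrion-specific large-subunit protein, had mRNA at 100.3 and 96.4 CPM in basal cells and 148.3 and 121.2 after LPS, and footprints at 87.8 and 72.3 and then 59.1 and 49.9 (TE change, limma-trend adjusted p = 0.0145). Mrpl4, the homolog of bacterial L4 that lines the exit tunnel, and Mrps2, the homolog of S2, had the same arrangement, with a higher mean mRNA and a lower mean footprint level after LPS and neither change passing alone.

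The balance of these calls depended on the scaling. With library totals the all-gene median TE change after LPS was -0.34 and that of the members 0.08, a distance of 0.42 that was 0.43 with median-of-ratios scaling, which moved the all-gene median by 0.29. With that scaling 11 members were called higher and 1, Mrpl10, lower (5.93% and 5.33% of all genes). The TE changes of Mrpl10 and Mrpl52 passed in all 12 fits that left out 1 library. Mrps33 was lost only without LPS mRNA replicate 2 and Mrps25 only without basal footprint replicate 2. The number of calls was 4 without LPS mRNA replicate 2, 5 or 6 without any 1 footprint library or LPS mRNA replicate 1, 7 without basal mRNA replicate 1, and 9 without any of the other mRNA libraries. Limma-voom called 5 and array quality weights 6.

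Within basal cells, most mitoribosomal mRNAs carried fewer footprints per mRNA than the library average. TE was below 0 on the log2 scale for 59 of 78 members, with 28 called lower and 3 higher, where 17.3% of all genes were called lower and 33.4% higher. The members' median TE level was -0.33, against 0.21 for all genes. The 5 lowest members were Mrps21, Mrpl30, Mrps15, Mrps16 and Mrps24. In Mrps21 the 2 basal replicates had 0.439 and 0.332 footprint CPM per mRNA CPM, a level of -1.38 ± 0.18 (limma-trend adjusted p = 2.9e-05), and in Mrpl30 they had 0.4 and 0.382, a level of -1.35 ± 0.14 (4.27e-06 by the same adjusted test). Mrps15, the homolog of S15, had 0.399 and 0.402, Mrps16, the homolog of S16, had 0.372 and 0.479, and Mrps24 had 0.371 and 0.516. Mrpl12, the stalk protein homologous to bacterial L7/L12 that Mrpl10 anchors, had 0.453 and 0.516.
At the other end, Mrpl1, the homolog of the L1 stalk protein at the tRNA exit site, had ratios of 2.37 and 1.48 in basal cells, a level of 0.88 ± 0.29 (limma-trend adjusted p = 0.0212). Mrpl16, the homolog of L16, had 1.95 and 1.56, and Mrps2 had 1.25 and 2.11. Next in the order were Mrps18b and Mrpl10, whose levels did not pass. Mrpl1 rested on 37 to 78 mRNA reads in a library. With median-of-ratios scaling, 48 members were called lower and 1, Mrpl16, higher, where 25.1% of all genes were called in each direction. Without basal mRNA replicate 1, 26 were called lower and 2 higher, and 26 of the 31 calls were kept. Without basal footprint replicate 2, 25 were lower and 1 higher.

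**Figure D3:**
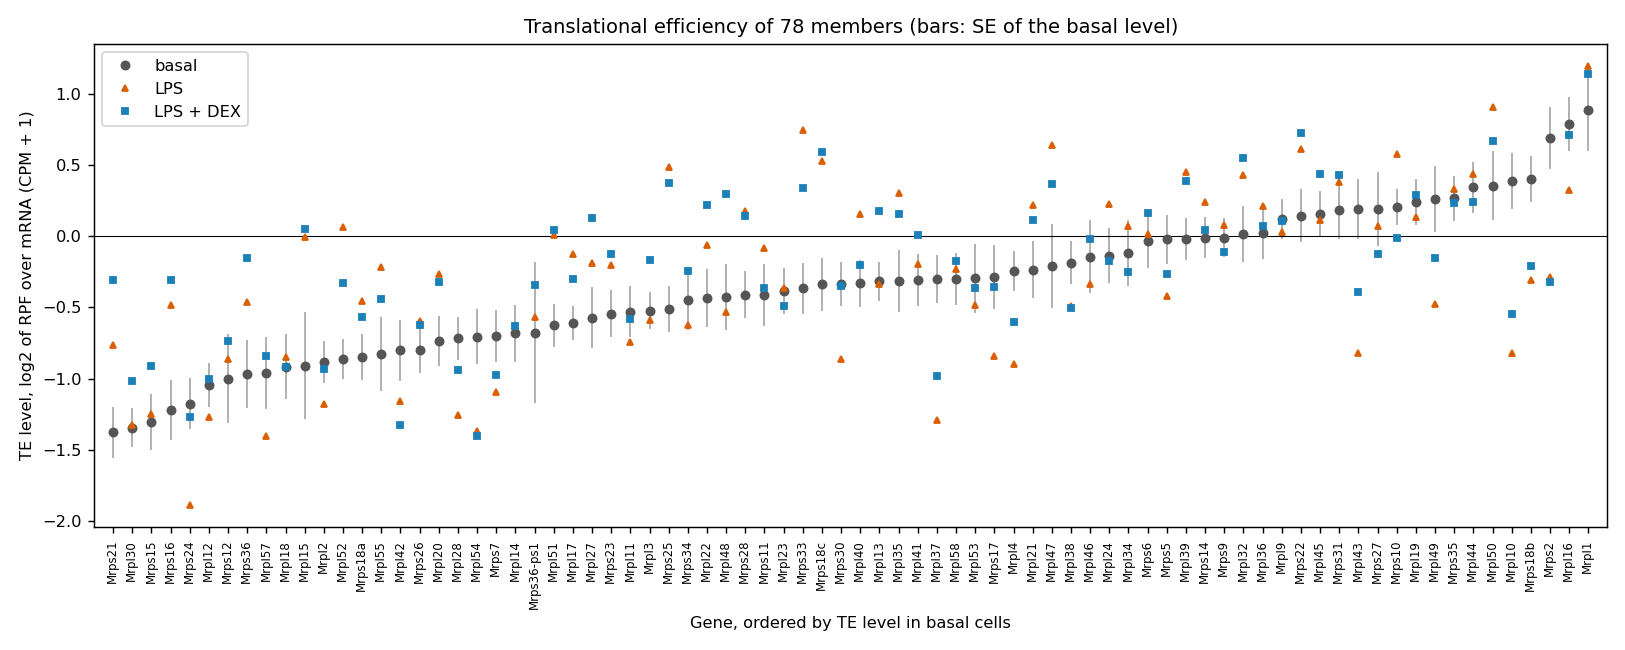
TE level (log2 of footprint over mRNA CPM + 1) of each of the 78 genes in basal (grey circles, with the SE of the fit), LPS (orange triangles) and LPS + DEX cells (blue squares), ordered by the basal level. Most basal points lie below 0, from -1.38 for Mrps21 to 0.88 for Mrpl1, and several genes shift by about 1 unit or more after treatment, upward for Mrps33 and downward for Mrpl10.

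The TE order of the members was closer between the treated groups than between either of them and basal cells. Spearman's rho over the 78 members was 0.879 between LPS and LPS + DEX, 0.588 between basal and LPS, and 0.586 between basal and LPS + DEX, where all 9412 genes had 0.897, 0.752 and 0.772. These values describe gene orders measured in different libraries, and depth differed between them. Basal levels include mRNA of basal replicate 1, the library that stood apart, and no order without it is given. In LPS-treated cells 26 members were called lower and 8 higher (27.1% and 24.8% of all genes), and with LPS + DEX 20 lower and 8 higher (27.2% and 23.8%). These counts depended on single libraries. In LPS cells they were 18 lower and 4 higher without LPS mRNA replicate 2, and 21 and 4 without LPS footprint replicate 2. In LPS + DEX cells they were 13 and 2 without mRNA replicate 1 of that group, 13 and 1 without footprint replicate 1, 20 and 5 without mRNA replicate 2, and 19 and 4 without footprint replicate 2. The 15 members called lower in every treatment (11 to 16 with 1 library left out) were Mrpl2, Mrpl11, Mrpl12, Mrpl14, Mrpl18, Mrpl28, Mrpl30, Mrpl42, Mrpl54, Mrpl57, Mrps7, Mrps15, Mrps18a, Mrps24 and Mrps26. The 1 called higher in every treatment was Mrpl1, with ratios of 2.13 and 2.57 after LPS and 3.35 and 1.53 after LPS with DEX. The share of all genes called in every treatment is not given here, so neither count is read as particular to the members. No member was called higher in every treatment without basal mRNA replicate 1, LPS + DEX mRNA replicate 1 or either basal footprint library. Mrps25 was called lower in basal cells (-0.51 ± 0.16) and higher after LPS (0.49 ± 0.16). Mrps24 reached the lowest TE level of any member in any treatment, -1.89 ± 0.18 after LPS, with ratios of 0.268 and 0.257.

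The counts were also split by the subunit in the gene symbol and by descent. Whether each protein sits in the subunit of its symbol was not checked here. After LPS, mRNA was called lower for 2 of 48 Mrpl genes and 3 of 30 Mrps genes, with medians of -0.17 and -0.25. Among the 47 bacterial homologs 3 were lower and among the 30 mitochondrion-specific members 2, with medians of -0.20 and -0.15. Basal TE was called lower for 17 of 48 Mrpl and 11 of 30 Mrps genes, and for 19 of the 47 homologs and 9 of the 30 mitochondrion-specific members. All 3 members with a higher basal TE were bacterial homologs. The differences between these classes were not tested.

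When dexamethasone was added together with LPS, the comparison with basal cells used the same basal libraries as the LPS comparison, so that the results of both are not independent. Of the 78 members, 11 had lower mRNA and 1 higher, where 4.23% of all genes were called lower and 18.5% higher. The 11 were the 5 above, with Mrps18c at -1.03 ± 0.18 and Mrpl52 at -0.80 ± 0.13, and Mrpl51, Mrps16, Mrps28, Mrps23, Mrpl39 and Mrps14. Mrpl51 mRNA, for a mitochondrion-specific protein, was at 128.1 and 153.2 CPM in basal cells, 98.7 and 90.5 after LPS and 83.0 and 78.9 after LPS with DEX (-0.78 ± 0.16 against basal, limma-trend adjusted p = 0.0141). Mrps23, also mitochondrion-specific, was at 68.5 and 66.6, then 56.2 and 55.4, then 45.5 and 43.4 CPM. In both genes every treated library was below both basal ones.
Mrps2 mRNA rose from 50.2 and 42.8 CPM in basal cells to 72.7 and 77.5 (0.69 ± 0.17, limma-trend adjusted p = 0.0275). With median-of-ratios scaling 26 members were lower and 0 higher (8.9% and 7.76% of all genes), and Mrps2 did not pass (0.40, limma-trend adjusted p = 0.166). Without LPS + DEX mRNA replicate 1 no member passed, without replicate 2 of that group 3 did, and without either LPS library 6. Without basal mRNA replicate 1, 10 passed, of which 9 were lower, and 8 of the 12 calls were kept.

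Footprints of 1 member passed against basal in LPS + DEX cells, where 2.86% of all genes were called lower and 1.77% higher. Mrpl42, a mitochondrion-specific protein, had 90.8 and 89.4 footprint CPM in basal cells, 78.4 and 56.0 after LPS, and 42.3 and 52.4 after LPS with DEX (-0.92 ± 0.19 against basal, limma-trend adjusted p = 0.0105). Every LPS + DEX library was below every LPS and basal one. The call was lost without either LPS + DEX footprint library. Limma-voom and array quality weights called 5 members lower.
TE rose for Mrps21 (1.07 ± 0.25), Mrps18c (0.93 ± 0.26) and Mrps25 (0.88 ± 0.23) and fell for Mrps2 (-1.01 ± 0.31) and Mrpl10 (-0.93 ± 0.28), where 2.68% of all genes were called higher and 12.2% lower. In Mrps21 the footprint to mRNA ratio was 0.841 and 0.775, above both basal ratios, its mRNA having fallen while its footprints stood at 100.4 and 88.9 CPM against 80.9 and 70.4. With median-of-ratios scaling 16 members were called higher and 0 lower (5.39% and 3.78% of all genes). No call held without LPS + DEX footprint replicate 1 and 1 without replicate 2 of that group, and the count was 2 without basal footprint replicate 2 or LPS + DEX mRNA replicate 1, and 3 without basal footprint replicate 1, LPS + DEX mRNA replicate 2, basal mRNA replicate 1 or LPS mRNA replicate 1.

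The direct comparison of LPS + DEX with LPS asks what dexamethasone added to 30 min of LPS. In mRNA, limma-trend called 0 of 9277 genes (0%) and 0 members, while 183 genes and 0 members had an unadjusted p below 0.05. Limma-voom called 0 members as well. In footprints, 3 members were lower and 0 higher, where 3.55% of all genes were called lower and 3.14% higher. Mrpl40, a mitochondrion-specific large-subunit protein, had 88.0 and 107.1 footprint CPM after LPS and 65.3 and 60.5 after LPS with DEX (-0.62 ± 0.15, limma-trend adjusted p = 0.027). Its basal libraries, at 85.5 and 79.6, lay between them. Mrps10, the homolog of S10, had 131.4 and 130.2 and then 90.7 and 87.3 (-0.55 ± 0.13, limma-trend adjusted p = 0.0173), with 122.9 and 123.0 in basal cells. Mrpl52, given above, differed by -0.54 ± 0.14 (limma-trend adjusted p = 0.0285).
In each of the 3 genes both LPS libraries were above both LPS + DEX ones. The calls were the same in number under every other scaling, filter, pseudocount and test run, but 0 held without LPS footprint replicate 2 or either LPS + DEX library, and 1 without LPS replicate 1. For the TE change between these treatments limma-trend called 5 of 9412 genes (0.0531%) and 0 members. An unadjusted p below 0.05 was found for 597 of the 9412 genes and 6 of the 78 members. Limma-voom called 0 members as well.

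The homologs of bacterial S18 are 3 in mammals, where bacteria have a single gene, and a mitoribosome holds them at different positions. They differed in what was called. Mrps18a mRNA was at 162.0 and 142.9 CPM in basal cells, 110.5 and 118.6 after LPS, and 133.2 and 107.2 after LPS with DEX, and its footprints were at 87.0 and 81.5, 92.8 and 74.2, and 76.8 and 84.0. None of its changes passed, and its TE was called lower in every treatment, at -0.85 ± 0.16 in basal cells. Mrps18b mRNA was at 82.7 and 93.1 CPM in basal cells and 92.8 and 105.0 after LPS, with overlapping groups, whereas its footprints were at 108.4 and 125.0 in basal cells, 78.4 and 80.3 after LPS, and 72.6 and 88.4 after LPS with DEX. Its footprint change with LPS was -0.55 ± 0.15 (limma-trend adjusted p = 0.0405) and its TE change -0.71 ± 0.23 (limma-trend adjusted p = 0.0488); neither passed with median-of-ratios scaling (0.064 and 0.236).
Mrps18c had the opposite TE change, 0.86 ± 0.26 (limma-trend adjusted p = 0.041), with footprint to mRNA ratios of 0.697 and 0.891 in basal cells, 1.45 and 1.45 after LPS, and 1.68 and 1.37 after LPS with DEX. The TE changes of both genes passed in 3 of the 12 fits that left out 1 library. The difference between the genes was not tested.

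**Figure D4:**
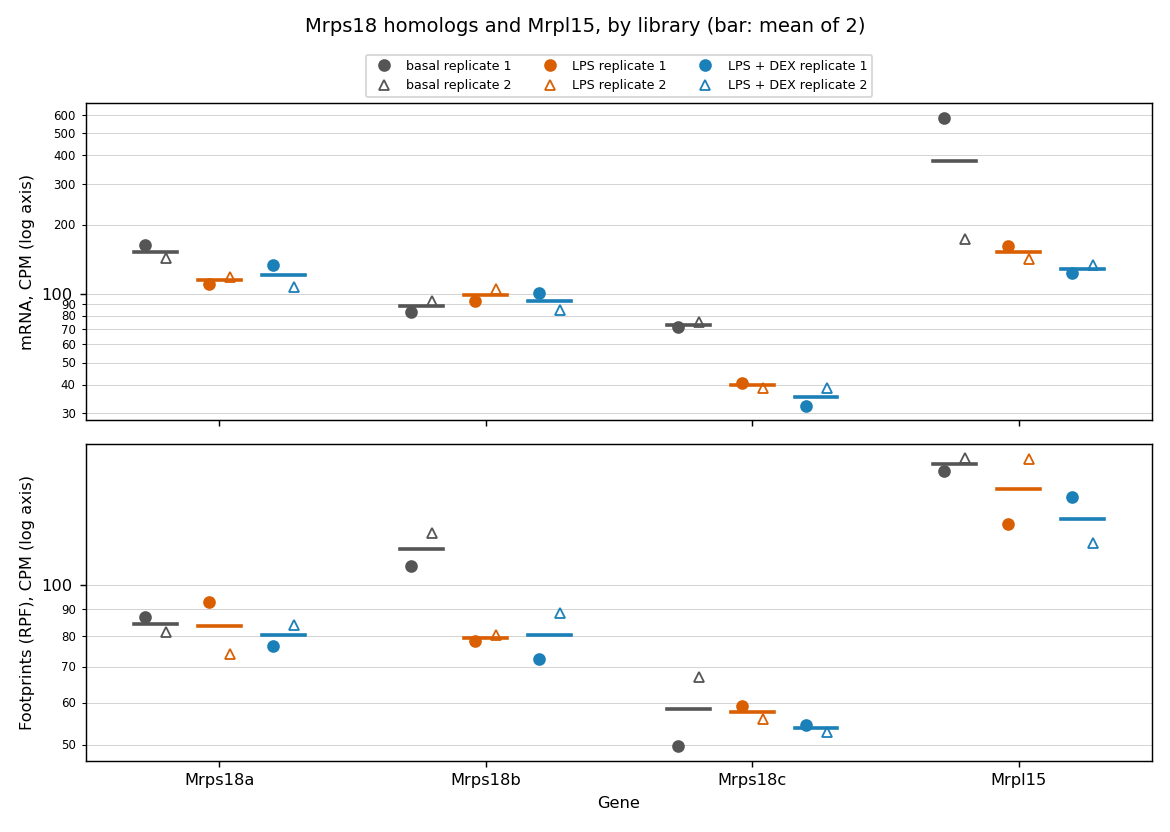
CPM (log axis) in each library for Mrps18a, Mrps18b, Mrps18c and Mrpl15, mRNA above and footprints below; circles are replicate 1, triangles replicate 2 and bars the mean of 2. Mrps18c is lower in treated mRNA and Mrps18b in treated footprints, and Mrpl15 has 1 mRNA point at 584 CPM, in basal replicate 1, above 5 points from 123 to 172 CPM.

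A pair of members had a single mRNA library more than 2 times above all others. Mrpl15, the homolog of L15, was at 584 CPM in basal replicate 1 and at 172.1 in basal replicate 2, 161.3 and 141.5 after LPS, and 122.9 and 132.9 after LPS with DEX. Its fitted LPS change of -1.07 ± 0.47 did not pass (limma-trend adjusted p = 0.171) and was -0.19 without that library, the one that stood apart above. Its footprints were at 164.1 and 173.0 CPM in basal cells, 130.2 and 172.8 after LPS, and 146.4 and 120.0 after LPS with DEX. The pseudogene Mrps36-ps1 was at 31.9 mRNA CPM in basal replicate 2 and at 8.14 to 14.2 in the others. The summed mRNA of all members was 7496 and 7546 CPM in basal cells, 6556 and 6415 after LPS, and 6351 and 5998 after LPS with DEX. Without Mrpl15 it was 6912 and 7374, then 6394 and 6274, then 6228 and 5865, so that the basal libraries stayed above the treated ones. Summed footprints were 5517 and 5551 CPM in basal cells, 5139 and 5289 after LPS, and 5032 and 5159 after LPS with DEX.

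Other components of mitochondrial translation were read from 4 lists. Of 5 mitoribosomal proteins under other symbols, 1 had lower mRNA after LPS, Chchd1, a small-subunit protein. Its mRNA was at 136 and 149 CPM in basal cells, 81.0 and 69.0 after LPS, and 66.8 and 71.3 after LPS with DEX, and its footprints at 74.0 and 75.6, 107 and 107, and 71.4 and 67.1. mRNA thus fell (-0.92 ± 0.16, limma-trend adjusted p = 0.0228) while footprints rose (0.51 ± 0.14, 0.0408 by the same adjusted test), and TE rose by 1.43 ± 0.20. The TE change passed in all 12 fits that left out 1 library, the mRNA change in 4 of 6, being lost without either LPS library, and the footprint change in 0 of 6.
Slirp, which with Lrpprc stabilises mitochondrial mRNAs, was the 1 of 17 translation and mRNA factors with lower mRNA after LPS. It was at 116 and 117 CPM in basal cells, 68.0 and 54.5 after LPS, and 39.5 and 46.1 after LPS with DEX, with footprints at 67.9 and 63.1, 111 and 107, and 69.6 and 55.6. Its TE change was 1.65 ± 0.24 (limma-trend adjusted p = 0.00171), called in all 12 such fits, whereas its mRNA and footprint calls were each lost without either LPS library of the assay.

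Of 20 mitoribosome assembly factors, 1 had higher and 1 lower mRNA after LPS. Eral1, a chaperone of the small-subunit rRNA, was at 66.4 and 53.0 CPM in basal cells and 23.6 and 31.6 after LPS (-1.09 ± 0.28, limma-trend adjusted p = 0.0468), and passed in 1 of 6 fits that left out 1 library. Dhx30, an RNA helicase of mitochondrial RNA granules, was at 71.2 and 81.2 CPM in basal cells and 126 and 171 after LPS. The change was 0.94 ± 0.19 (limma-trend adjusted p = 0.0289), and it did not pass with median-of-ratios scaling (limma-trend adjusted p = 0.0813). It ran from 0.73 to 1.16 with 1 library left out, and the call was lost without either LPS or either LPS + DEX mRNA library. Of 17 mitochondrial aminoacyl-tRNA synthetases none passed in mRNA after LPS. The list's median was 0.36, above that of all genes. Among their footprints, those of Vars2 rose after LPS, to 32.6 and 34.1 CPM (1.12 ± 0.27, limma-trend adjusted p = 0.023), a call that held in 1 of 6 fits that left out 1 library.

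The cytosolic ribosomal proteins and the mRNAs that the mitoribosome itself translates are set beside the members here. Of 85 cytosolic ribosomal protein genes, 39 had lower and 0 higher mRNA after LPS (median -0.46; 62 and 0 with median-of-ratios scaling), and TE rose for 50 and fell for 2 (median 0.52). Of 76 nuclear oxidative phosphorylation genes, 16 had lower and 2 higher mRNA (median -0.32), and with median-of-ratios scaling 31 and 0. Of the 13 mRNAs encoded in mitochondrial DNA, 12 had more footprints after LPS and 0 fewer, and all 13 had fewer with LPS + DEX than with LPS. Their summed footprints were 4111 and 3653 CPM in basal cells, 8681 and 9481 after LPS, and 2168 and 1897 after LPS with DEX, while the summed footprints of the 78 nuclear members lay between 5032 and 5551 CPM in all 6 libraries.

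**Figure D5:**
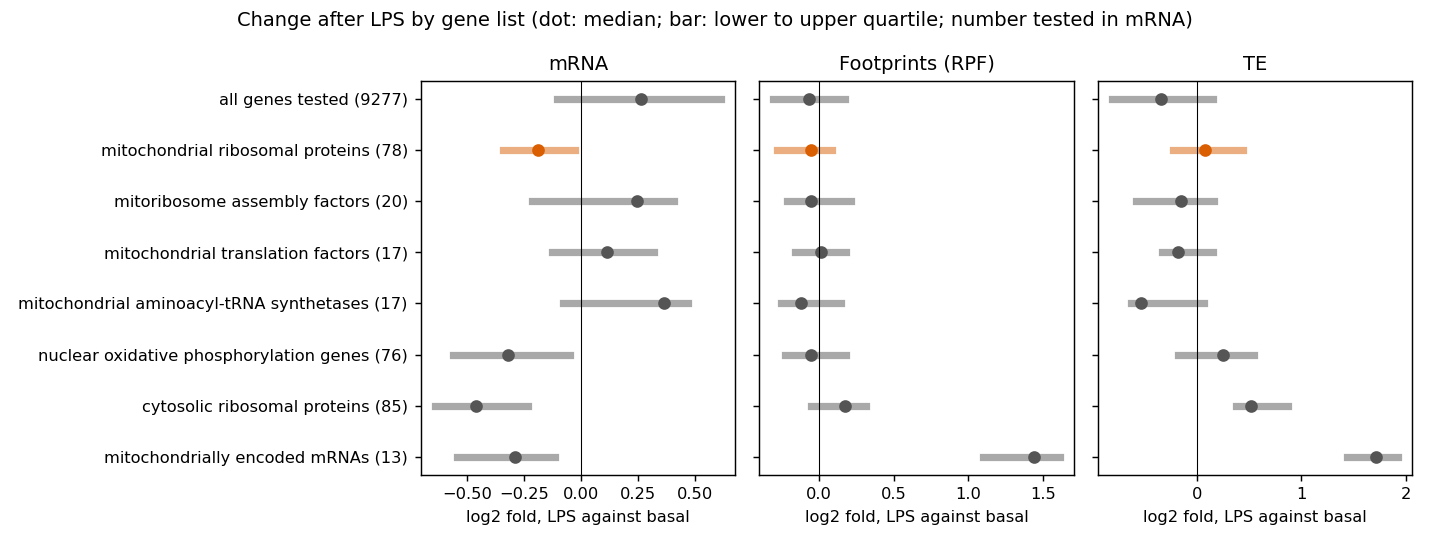
Change after LPS (log2 fold) in mRNA, footprints and TE for the 78 mitoribosomal protein genes (orange) and other lists; dots are medians and bars the span from the lower to the upper quartile, with the number tested in mRNA in brackets. The members' mRNA median (-0.19) lies between those of all genes (0.26) and of cytosolic ribosomal proteins (-0.46), and their footprint median (-0.06) is at that of all genes.

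Across the 9 comparisons between treatments, in mRNA, footprints and TE, 23 of the 78 members were called at least once and 55 in none, where 35.1% of the 8697 genes tested in all 9 were called at least once. The members' count was 15 to 20 with 1 library left out, and 15 without LPS mRNA replicate 1 or either LPS + DEX footprint library. A change that missed the threshold was not shown to be absent.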

How the data were processed

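The deposited values, 1 file per library with an Ensembl gene ID per line, are CPM with 1 added, as the values themselves show: after 1 was subtracted, every value low enough for its deposited digits to show it was a whole multiple of what 1 read is worth (100% within 0.1 read). How the authors made the CPM values (aligner, annotation, genome build) is not given in the sources used here. The libraries were sequenced on an Ion PGM, per the labels. Only genes with a deposited value above 16 in at least 1 library are listed.

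Symbols were matched by Ensembl ID for 9521 of 9621 genes. limma 3.58.1 (limma-trend, R 4.3.3) was run two-sided on log2(CPM + 1) over genes with the equivalent of at least 10 reads at median depth in at least 2 libraries: 6 libraries of an assay in 1 fit, or all 12 for TE, with the TE change as the interaction of assay and treatment. The procedure was run on simulated reads with known folds. That simulation held no library that stood apart and no shift of the all-gene median, so it does not bear on either. Replicate numbers were not used as a block in the main fit, since deviations of same-numbered libraries were weakly correlated, which does not exclude pairing. The rule named the members called per comparison whose groups did not overlap, the Mrps18 genes and the extremes of basal TE; coding lengths were not used here. The members and lists were chosen with earlier results of these data known. Promoter windows are from RefSeq (GRCm38.p6), of which only sequence and its coordinates were used.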

Additional observations from a re-analysis of the deposited data

How the results depend on the processing

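Among the members called in a comparison, 0 of 204 pairs of comparison and setting held a change of sign. The pairs for LPS + DEX against LPS in mRNA and in TE had no called member, so none could change there. Members not called did change sign: the mRNA change of Mrps17 with LPS ran from -0.49 to 0.0086 with 1 library left out. The number of members called moved more. Median-of-ratios scaling in place of library totals gave 26 in place of 12 for mRNA with LPS + DEX against basal, 16 in place of 5 for the TE change of that comparison, and 49 in place of 31 for basal TE. Limma-voom, added after the data were seen, gave 3 in place of 5 for mRNA with LPS, 2 in place of 6 and 5 in place of 1 for footprints with LPS and with LPS + DEX against basal, and 5 in place of 10 for the TE change with LPS. Array quality weights gave 2 and 5 for the same footprint comparisons and 6 for that TE change. A mean of at least 20 reads gave 2 in place of 1 for footprints with LPS + DEX against basal.

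With the replicate number as a block, the counts were 0 in place of 5 and 7 in place of 12 for mRNA with LPS and with LPS + DEX, 2 in place of 1 for footprints with LPS + DEX against basal, and 6 in place of 10 and 2 in place of 5 for the TE changes with LPS and LPS + DEX. Deviations of same-numbered libraries from their group means correlated at -0.183 to 0.108 across genes, and those of mRNA and footprints at -0.0157 to 0.0143. With few reads for many genes, such values can lie near 0 even for libraries of the same culture, so pairing was not excluded. Ratios given per replicate divide same-numbered libraries.

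Leaving out each library in turn, the counts ranged from 0 to 4 for mRNA with LPS, 0 to 10 with LPS + DEX and 0 to 0 between them, from 0 to 5, 0 to 2 and 0 to 3 for footprints in the same order, and from 4 to 9, 0 to 5 and 0 to 0 for TE changes. For TE levels they were 24 to 33 in basal, 22 to 35 in LPS and 14 to 29 in LPS + DEX cells. Where a group kept 1 library, it was assumed to vary like the others. Of 1458 such fits of single named genes, 1175 kept their call or lack of one and 283 lost it. The quasi-likelihood count test planned as an alternative was not run, and limma-voom on the recovered reads took its place.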
